A study of Homo sapiens with 30 samples.

Results

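The genome-wide distribution of H3K27me3 was compared between prostate epithelial cells that expressed ERG (RWPE1-ERG) and cells that carried the empty vector (RWPE1-Vector), gene by gene. For each gene the percent of its locus covered by H3K27me3 regions was measured in each line, with the same number of regions taken from each list, 228233 regions of lowest p-value. Of the 26253 genes in the expression table, 23638 had a locus of at least 2000 bp on chromosomes 1 to 22 or X and were compared. The 1708 genes described here are those whose coverage differed between the lines by at least 10 percentage points. In RWPE1-ERG, 1278 genes gained coverage (5.41% of those compared) and 430 genes lost coverage (1.82%). There was 1 H3K27me3 library per line, so a gain or a loss is a difference between 2 libraries, with no replicate error and no test. Just inside the limit were DLL4, at a gain of 10.002 points, and ANXA6, at a difference of -10.002 points, and just outside it were DQX1 and ANO1-AS2.

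RWPE1 is an immortalized line of normal prostate epithelial cells, and the series holds 30 samples of RWPE1 and of the prostate cancer line VCaP. RWPE1-Vector cells were transduced with the retrovirus pQCXIH and RWPE1-ERG cells with pQCXIH carrying isoform 1 of ERG. A further H3K27me3 library came from RWPE1-ERG S96E cells, which carry ERG with a glutamate in place of a serine that is a phosphorylation site. RNA-seq was conducted with 3 libraries per line in both of these lines and in RWPE1-mAKT cells with and without ERG (RWPE1-ERG+mAKT and RWPE1-mAKT), where mAKT is a myristoylated and thereby constitutively active AKT expressed from pBabe-puro. The protocol that all samples share names a different backbone for ERG, pLHCX, and culture of the cells in hygromycin and puromycin. The labels do not say whether any line was cloned. According to the methods, the DNA of each ChIP library was pooled from independent ChIP experiments. The FPKM values of each line were pooled over its libraries by the authors, so an FPKM is a single value per line, without error.

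H3K27me3 is the trimethylated form of a lysine in the tail of histone H3. It is written by polycomb repressive complex 2 (PRC2), in which EZH2 is the catalytic subunit and EED and SUZ12 are required partners, and it is removed by the demethylases KDM6A and KDM6B. In differentiated cells the mark covers silent regulators of development, such as HOX genes and homeobox factors of other lineages, often as domains much wider than the gene and centred on promoters rich in CpG dinucleotides. ERG is an ETS transcription factor that is normally silent in prostate epithelium and is switched on in many prostate tumors by a fusion with a gene active in prostate.

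The RNA-seq values matched the labels of the lines. ERG was at an FPKM of 0.264 in RWPE1-Vector and 358 in RWPE1-ERG, and at 0.435 in RWPE1-mAKT and 328 in RWPE1-ERG+mAKT. All 10 markers of prostate basal epithelium were at an FPKM of at least 1 in both lines, between 33.3 and 3126 in RWPE1-Vector and between 21.3 and 1768 in RWPE1-ERG. Of 5 luminal markers 3 were, the keratins KRT8 and KRT18 among them, whereas KLK3 was listed at 0. The keratins differed between the lines, with KRT5 at 3126 and 1170 and KRT14 at 2936 and 700, and KRT8 at 622 and 1769 and KRT18 at 817 and 1843, and the part of this difference in the H3K27me3 results was not tested. None of 4 endothelial markers and none of 4 blood markers reached an FPKM of 1, and of 5 fibroblast markers only COL1A1 did, at 2.05 and 2.18.

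The depths of the 2 H3K27me3 libraries differed less than their lists did. By the list headers, the RWPE1-Vector list rested on 19444504 reads from the ChIP and 15679418 from its input, and the RWPE1-ERG list on 16513053 and 9675359. The RWPE1-Vector list was the longer, with 492265 regions, and all 228233 regions of the RWPE1-ERG list entered the comparison. Taken in equal numbers, the regions covered 123.0 Mb in RWPE1-Vector and 138.4 Mb in RWPE1-ERG. Enrichment over input was low in both lists, with a mean fold of 2.05 in RWPE1-Vector and 1.99 in RWPE1-ERG, and only 29 and 39 regions reached a q-value of 0.01. The lowest mean -log10 p of a region was 1.38 in the shortened RWPE1-Vector list and 1.01 in the RWPE1-ERG list, so that weaker regions entered from RWPE1-ERG. Regions of at least 2 kb were more frequent in RWPE1-ERG, 7456 against 5042, and the widest region measured 35720 bp in RWPE1-ERG and 14794 bp in RWPE1-Vector. Both lists covered 31.9 Mb in common, which is 26.0% of the bases covered in RWPE1-Vector and 23.1% of those covered in RWPE1-ERG. The GC content of the covered bases was similar, at 41.7% and 41.9%, against 40.9% of the genome.

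Coverage was highest over genes without transcripts in both lines. Of the 8817 genes under an FPKM of 0.1 in both lines, 24.6% had at least 10% of the locus covered in RWPE1-Vector and 29.9% in RWPE1-ERG. With all regions of both lists the order was the other way round, at 45.6% and 29.9%. Of the 5484 genes at an FPKM of 10 to 100, these shares were 0.839% and 0.966%. The mean share of the locus covered was lower from class to class in each line, from 8.09% to 0.577% in RWPE1-Vector and from 10.2% to 0.264% in RWPE1-ERG. By this mean RWPE1-ERG was the higher of the lines in both classes under an FPKM of 1 and the lower in the 3 classes above it. Gains and losses were concentrated in the same genes, with 1022 gains and 298 losses under an FPKM of 0.1 and 11 gains and 15 losses at 10 or more.

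**Figure D1:**
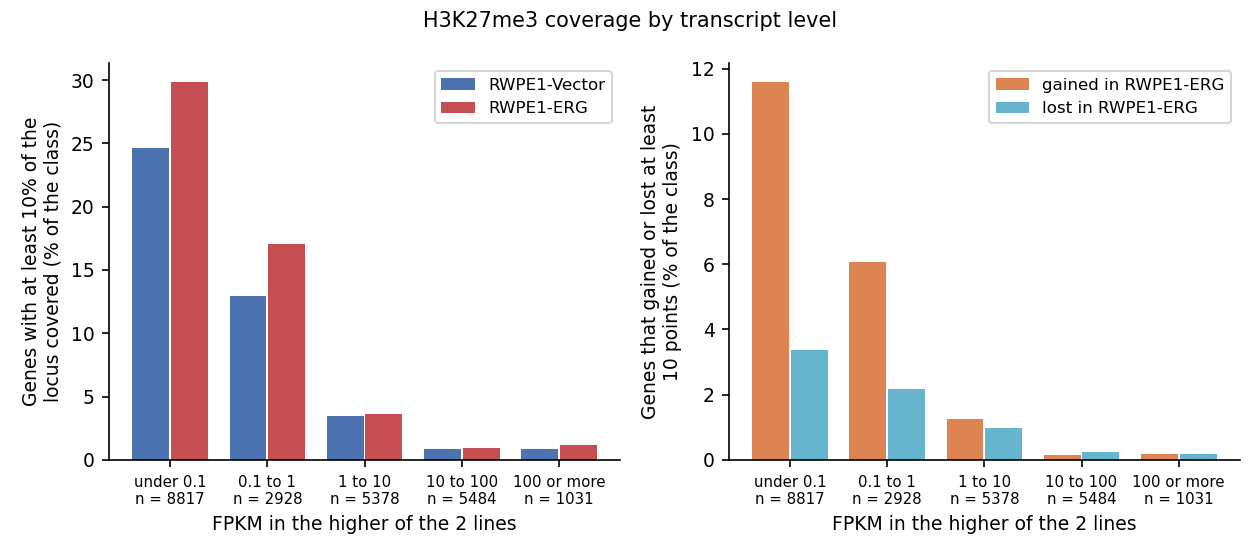
Left, the percent of genes with at least 10% of the locus covered by H3K27me3 regions in RWPE1-Vector (blue) and RWPE1-ERG (red), in 5 classes of the FPKM in the higher line; right, the percent of each class that gained (orange) or lost (light blue) at least 10 points. The bars fall from 24.6% and 29.9% in the lowest class to about 1% in the highest, and n is the number of genes in the class.

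Genes that gained coverage were mostly silent genes that already held some H3K27me3 in RWPE1-Vector. Their median coverage was 11.8% in RWPE1-Vector and 32.0% in RWPE1-ERG, 217 of the 1278 had no region in RWPE1-Vector, and 325 were at least 50% covered in RWPE1-ERG against 90 in RWPE1-Vector. The gain was at least 20 points in 508 genes and at least 50 points in 43, and the largest was 85.6 points. In RWPE1-ERG a median of 4 regions lay on these genes, the widest of them with a median of 2256 bp and a median fold of 2.28, where the widest region in RWPE1-Vector had a median of 1356 bp and a fold of 2.07. Most gains thus lay on genes that held at least 1 region in RWPE1-Vector, as did most of all genes, of which 8422 of 23638 held none. Of the genes that gained, 80.0% were under an FPKM of 0.1 in both lines, against 37.3% of all genes.

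Genes that lost coverage had a median of 21.9% covered in RWPE1-Vector and 4.71% in RWPE1-ERG. In RWPE1-ERG 161 of the 430 had no region, beside 12923 of all 23638 genes. The difference was at least 20 points in 116 genes and at least 50 points in 7. The widest region on them in RWPE1-Vector had a median of 1259 bp and a median fold of 1.99. Their loci were short, with a median of 7968 bp against 11424 bp for genes that gained and 34732 bp for all genes. Of the 430 genes, 298 (69.3%) were under an FPKM of 0.1 in both lines, against 37.3% of all genes. Another 68 (15.8%) were expressed, against 50.3% of all genes, which means here an FPKM of at least 1 in either line.

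The balance of gains and losses depended on how the lists were matched. With all regions of both lists, the longer RWPE1-Vector list gave 595 gains and 2057 losses, and the median difference over all genes moved from 0 to -2.12 points. With equal numbers of covered bases, 138.4 Mb in each line, there were 1124 gains and 538 losses. With the 100000 regions of lowest p-value in each list there were 1266 gains and 175 losses.

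**Figure D2:**
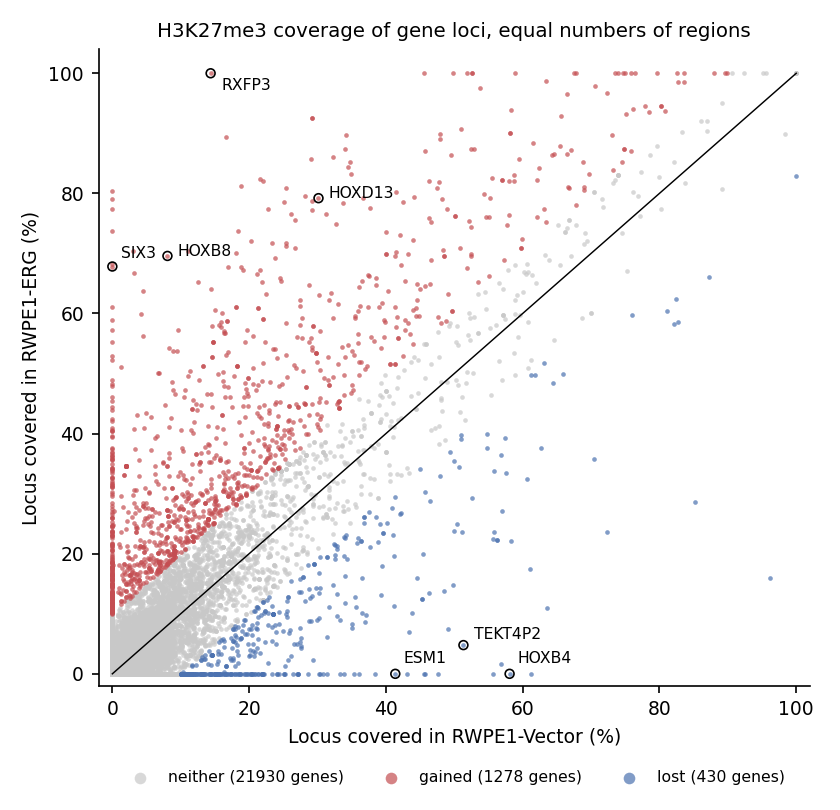
Percent of the locus covered by H3K27me3 regions in RWPE1-Vector (horizontal axis) and RWPE1-ERG (vertical axis) for 23638 genes, each a point, with 228233 regions in each list; the line marks equal coverage. The 1278 genes that gained (red) fill the upper triangle up to 100%, whereas many of the 430 that lost (blue), HOXB4 and ESM1 among them, lie at 0 in RWPE1-ERG.

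Gains and losses were found on every chromosome except that none of the genes of chromosomes 18 and 22 lost coverage. The share of genes that gained was between 1.79% on chromosome 22 and 9.46% on chromosome 5, and the share that lost was highest on chromosome 9, at 4.56%. On chromosome 5, 107 genes gained and 39 lost. By the kind of gene, 5.41% of the protein-coding genes and 7.43% of the long noncoding RNA genes gained coverage, and 1.58% and 2.64% lost it.

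Transcription factors of development made up the list with the largest share of gains. Of 105 measured factors of the homeobox, PAX, GATA, TBX, SOX, FOX and related families, 50 gained coverage and 2 lost it, where 5.41% and 1.82% of all genes did. Their median coverage was 25.3% in RWPE1-Vector and 50.1% in RWPE1-ERG, and 32 and 53 of them were at least 50% covered, whereas the median over all genes was 0.880% and 0. SIX3, a homeobox factor of eye and forebrain, had no region in RWPE1-Vector and was 67.8% covered in RWPE1-ERG. DLX5, which acts in bone and craniofacial development, was at 4.12% and 59.95%, and TLX3, a factor of sensory neurons, at 34.0% and 87.4%. MSX1, a factor of tooth and craniofacial development, was at 18.7% and 67.7%. The highest FPKM of these 4 genes in either line was 0.161, that of MSX1, and 58 of the 105 factors were below 0.1.

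The 28 expressed members of that list held less of the mark. FOXA1, FOXC1, SOX9, TBX3 and GATA6, for example, had no region in either line. Among the 28, 3 gained coverage, including DLX1, and FOXA2 and MSX2 lost it. FOXA2, a factor of endoderm, was 17.9% covered in RWPE1-Vector and not covered in RWPE1-ERG, with an FPKM of 6.04 and 5.25. The only factor of the list that was at least 2-fold higher in RWPE1-ERG was GATA3, at an FPKM of 1.52 and 5.10, with 1.51% of its locus covered in RWPE1-Vector and none in RWPE1-ERG.

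The 4 HOX clusters, whose genes specify position along the body axis, differed in coverage more from each other than between the lines. From first to last gene, the HOXA cluster was almost free of the mark, at 0.177% in RWPE1-Vector and 0.471% in RWPE1-ERG, and 10 of its 11 genes were expressed. The HOXB cluster was 28.2% covered in RWPE1-Vector and 32.5% in RWPE1-ERG, the HOXC cluster 13.2% and 24.1%, and the HOXD cluster 5.33% and 10.3%. Of 35 measured HOX genes, 8 gained and 1 lost coverage, and none differed at least 2-fold in FPKM. With all regions of both lists, 5 gained and 9 lost. Within the HOXB cluster the direction differed between genes. HOXB8 went from 8.06% in RWPE1-Vector to 69.6% in RWPE1-ERG at an FPKM of 0.0584 and 0.0690, whereas HOXB4 went from 58.1% to 0 at an FPKM of 2.01 and 3.94. With the 100000 regions of lowest p-value the difference at HOXB4 was 0. HOXB7, the most expressed gene of the cluster at an FPKM of 10.1 and 11.5, had no region in either line. HOXB13, which lies at the far end of the cluster and encodes a factor of the posterior body and of prostate, was 54.7% covered in RWPE1-Vector and 76.0% in RWPE1-ERG. In the HOXC cluster, HOXC9, HOXC10, HOXC11 and HOXC13 gained coverage. HOXC11, the largest of these gains, went from 11.7% to 44.1%, in a locus that it shares with another gene of the table.

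**Figure D3:**
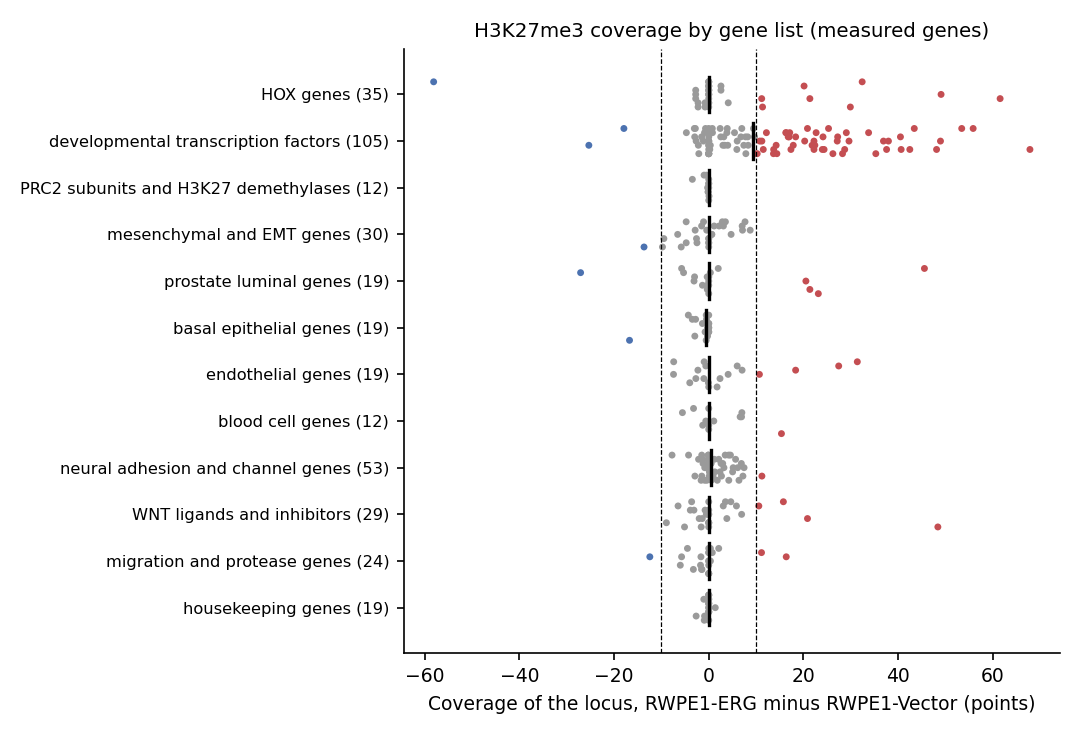
Difference in coverage of the locus between RWPE1-ERG and RWPE1-Vector, in percentage points, for each measured gene of 12 lists (number measured in parentheses); red points gained and blue points lost at least 10 points, dashed lines mark these limits and black bars the median of the list. Developmental transcription factors hold 50 of the red points, and the PRC2 and housekeeping lists hold neither red nor blue points.

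In the other lists the share of members that gained was 21.1% for prostate luminal and for endothelial genes, 13.8% for WNT genes, 8.33% for blood cell and for migration genes, 1.89% for neural genes and 0 for the rest, beside 5.41% of all genes. Of 19 measured prostate luminal genes, 4 gained and 1 lost, and with all regions 3 gained and 3 lost. NPY, a neuropeptide gene, was 23.8% covered in RWPE1-Vector and 69.3% in RWPE1-ERG, and the kallikrein gene KLK2 was at 11.7% and 34.9%, both with an FPKM listed at 0. Its neighbour in the kallikrein family, KLK4, went the other way, from 29.4% to 2.35%, at an FPKM of 0.00492 and 0.0268, although with the 100000 regions of lowest p-value, and at an enrichment of at least 2-fold, its difference was 2.35 points. These kallikrein genes resemble each other in sequence, so reads may have been placed on the wrong copy.

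Of 19 endothelial genes, 4 gained and none lost, whereas with all regions 2 gained and 6 lost. ESAM, an adhesion molecule of endothelial junctions, was 1.77% covered in RWPE1-Vector and 33.1% in RWPE1-ERG, and CLDN5, a tight junction protein, was at 0 and 27.4%. CLEC14A went from 0 to 18.3%, with its FPKM listed at 0. EGFL7, an angiogenic factor, differed from these in being expressed, at an FPKM of 14.1 and 22.3, with 14.1% and 24.8% of a locus it shares with another gene. The gains of CLEC14A and EGFL7 were not kept with all regions of both lists, where the difference of RWPE1-ERG minus RWPE1-Vector was -4.05 and -11.4 points.

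Of 29 WNT ligands and inhibitors, 4 gained and none lost, whereas with all regions 3 gained and 4 lost. SFRP2 and FRZB, which encode secreted inhibitors of WNT signaling, were at 23.3% and 71.7% and at 21.8% and 42.6%. The ligand genes WNT9B and WNT6 were at 11.1% and 26.9% and at 8.88% and 19.5%. None of the 4 reached an FPKM of 0.1 in either line.

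Among 24 migration and protease genes, 2 gained and 1 lost, whereas with all regions 1 gained and 4 lost. CXCR4, a chemokine receptor, was the most covered of the list in RWPE1-Vector, at 83.6%, and its whole locus was covered in RWPE1-ERG. The matrix protease gene MMP9 lost coverage, from 49.4% to 36.97%, at an FPKM of 0.136 and 0.399, and MMP7 gained it, from 0 to 11.1%. With the 100000 regions of lowest p-value from each list MMP9 was higher in RWPE1-ERG, by 36.97 points.

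Of 30 mesenchymal genes none gained, and COL5A1 lost coverage. With all regions of both lists none of the 30 gained and 4 lost, and with the 100000 regions of lowest p-value 1 gained and none lost. Of 19 basal epithelial genes, none gained and 1 lost, the keratin gene KRT6B, from 20.6% to 3.87% at an FPKM of 5.26 and 6.15, and with the 100000 regions of lowest p-value its difference was 3.87 points. It has near-identical neighbours, and its value is uncertain for that reason. Of 12 blood cell genes 1 gained, CD8A, from 25.2% to 40.5%. Of 53 neural adhesion and channel genes 1 gained, NRXN2, from 10.2% to 21.4%, and with all regions the difference was -3.12 points. None of 19 housekeeping genes gained or lost.

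The genes of the PRC2 machinery itself were expressed and little covered, and 5 of the 12 had no region in either line. None of the 12 measured PRC2 subunits and demethylases gained or lost coverage, and the most covered, PHF19, was at 3.46% in RWPE1-Vector and 0 in RWPE1-ERG. EZH2 was at an FPKM of 13.7 in RWPE1-Vector and 10.4 in RWPE1-ERG, SUZ12 at 17.2 and 13.3, and EED at 24.2 and 26.2. KDM6A was at 4.43 and 4.74 and KDM6B at 5.31 and 4.56. None of the 12 differed at least 2-fold in FPKM.

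Among expressed genes, there were 78 gains (0.656% of 11893 expressed genes) and 68 losses (0.572%). With all regions there were 38 gains and 397 losses, and with the 100000 regions of lowest p-value 84 and 14. The promoters of ESM1, S1PR3, HOXD13 and NPTX2 are shown to give the CG content just before these starts. The loci of ESM1 and S1PR3 lost coverage, with more transcript in RWPE1-ERG. Those of HOXD13 and NPTX2 gained coverage, with less transcript, by less than 2-fold at HOXD13. Within 1 kb of its start NPTX2 was only 8.35% covered in RWPE1-Vector and 11.6% in RWPE1-ERG, under the limit for a gain. No region of RWPE1-Vector or RWPE1-ERG overlapped any of the 4 stretches, and the regions lay to their sides, whereas in RWPE1-ERG S96E regions covered 55.6% of the stretch of ESM1, 78.4% of that of NPTX2, all of that of HOXD13 and none of that of S1PR3. Each sequence is the 250 bases before the gene's start in the GENCODE annotation mapped to GRCh37, on the gene's strand of GRCh37, with each CG dinucleotide, the target of DNA methylation, in capitals. The ESM1 window is chr5:54281422-54281671 on the minus strand, that of S1PR3 is chr9:91606133-91606382 on the plus strand, that of HOXD13 is chr2:176957199-176957448 on the plus strand and that of NPTX2 is chr7:98246347-98246596 on the plus strand.
ESM1: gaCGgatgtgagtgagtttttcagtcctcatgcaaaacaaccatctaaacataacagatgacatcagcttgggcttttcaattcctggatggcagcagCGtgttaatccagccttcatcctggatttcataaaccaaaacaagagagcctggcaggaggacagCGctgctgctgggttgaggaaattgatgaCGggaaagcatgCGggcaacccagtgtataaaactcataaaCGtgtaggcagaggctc
S1PR3: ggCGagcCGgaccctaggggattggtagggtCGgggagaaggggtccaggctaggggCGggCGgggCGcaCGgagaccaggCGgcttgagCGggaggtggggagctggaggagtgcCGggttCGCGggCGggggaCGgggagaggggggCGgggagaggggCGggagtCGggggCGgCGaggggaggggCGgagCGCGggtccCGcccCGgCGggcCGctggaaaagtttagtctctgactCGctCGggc
HOXD13: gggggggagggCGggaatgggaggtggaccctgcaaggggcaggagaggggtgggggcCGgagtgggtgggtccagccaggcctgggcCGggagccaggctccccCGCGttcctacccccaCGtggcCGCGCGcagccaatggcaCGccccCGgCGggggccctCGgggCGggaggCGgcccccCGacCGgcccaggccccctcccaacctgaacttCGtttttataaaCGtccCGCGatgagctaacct
NPTX2: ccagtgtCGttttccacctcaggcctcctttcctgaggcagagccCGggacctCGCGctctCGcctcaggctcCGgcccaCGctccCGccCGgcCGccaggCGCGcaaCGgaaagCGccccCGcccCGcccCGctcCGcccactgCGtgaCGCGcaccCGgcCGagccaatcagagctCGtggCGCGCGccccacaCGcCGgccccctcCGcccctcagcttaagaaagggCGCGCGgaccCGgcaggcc
The motif searched was CG, which reads the same on both strands. The ESM1 window holds 6 CG, which places it among the 22.5% of protein-coding promoters with the fewest, whereas those of S1PR3, HOXD13 and NPTX2 hold 28, 21 and 34. The median of 17275 promoters was 19, and 97.3% hold at least 1.

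HOXB4 had the largest loss of the expressed genes with equal numbers of regions. With the 100000 regions of lowest p-value the difference at HOXB4, NPM3 and ZNF669 was 0, and that at MSX2 was -5.94 points, so these 4 losses were not kept, nor were those of COL5A1, CDK18 and NRGN. Its locus, chr17:46652869-46655743, held 2 regions in RWPE1-Vector, the wider of 1470 bp at 2.04-fold enrichment, and none in RWPE1-ERG, and its FPKM was 2.01 and 3.94. ESM1 at chr5:54273695-54281414, which encodes a proteoglycan secreted by endothelial cells, was 41.4% covered in RWPE1-Vector and not covered in RWPE1-ERG. Its FPKM was 0.1002 in RWPE1-Vector and 15.9 in RWPE1-ERG, and 0.0399 in RWPE1-mAKT and 2.501 in RWPE1-ERG+mAKT, so the transcript was higher with ERG in both backgrounds. The widest RWPE1-Vector region on ESM1 measured 2352 bp at 1.94-fold enrichment and began 172 bp downstream of the start shown above. In RWPE1-ERG an ATAC-seq peak lay over the start, and in RWPE1-ERG S96E a region of 387 bp did.

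NPM3, a histone chaperone gene, went from 33.8% to 0 while its FPKM was high in both lines, at 215 and 206. MSX2, a homeobox gene of bone and craniofacial development, went from 25.3% to 0 at an FPKM of 3.60 and 2.92, and ZNF669, a zinc finger gene, from 27.4% to 5.28% at 3.41 and 4.07. The transcript levels of these 3 genes were thus close in the lines despite the loss. TEKT4P2, ZNF717 and FRG1B, the other genes among the 8 largest losses of expressed genes, went from 51.3% to 4.78%, from 35.0% to 7.58% and from 25.2% to 1.37%. They belong to families with near-identical copies elsewhere in the genome, and their coverage is uncertain.

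The largest gains among expressed genes were on genes with low FPKM. HOXD13 at chr2:176957532-176960666, the last gene of the HOXD cluster and a factor of limbs and the urogenital tract, was 30.1% covered in RWPE1-Vector and 79.2% in RWPE1-ERG, and its FPKM was 4.48 and 2.57. A single region of 2483 bp at 2.89-fold enrichment covered it in RWPE1-ERG, where RWPE1-Vector had 2 regions, the wider of 727 bp at 1.94-fold. CD70, the ligand of a receptor on lymphocytes, went from 25.4% to 71.7% at an FPKM of 2.74 and 2.13.

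DLX1 and PRDM13, regulators of the developing nervous system, went from 19.6% to 57.2% and from 46.3% to 82.1%. Their FPKM was lower in RWPE1-ERG in both cases, at 1.28 and 0.609 and at 1.14 and 0.453. The widest region on DLX1 measured 1591 bp in RWPE1-ERG and 824 bp in RWPE1-Vector. P2RY1, a nucleotide receptor, went from 10.6% to 47.3% at an FPKM of 1.11 and 0.534, and ITPKA, a kinase of inositol phosphates, from 7.69% to 44.7% at 0.954 and 1.16. Of the 8 genes with the largest gains, 7 had the lower FPKM in RWPE1-ERG, and 1 was at least 2-fold lower on the FPKM + 1 scale.

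**Figure D4:**
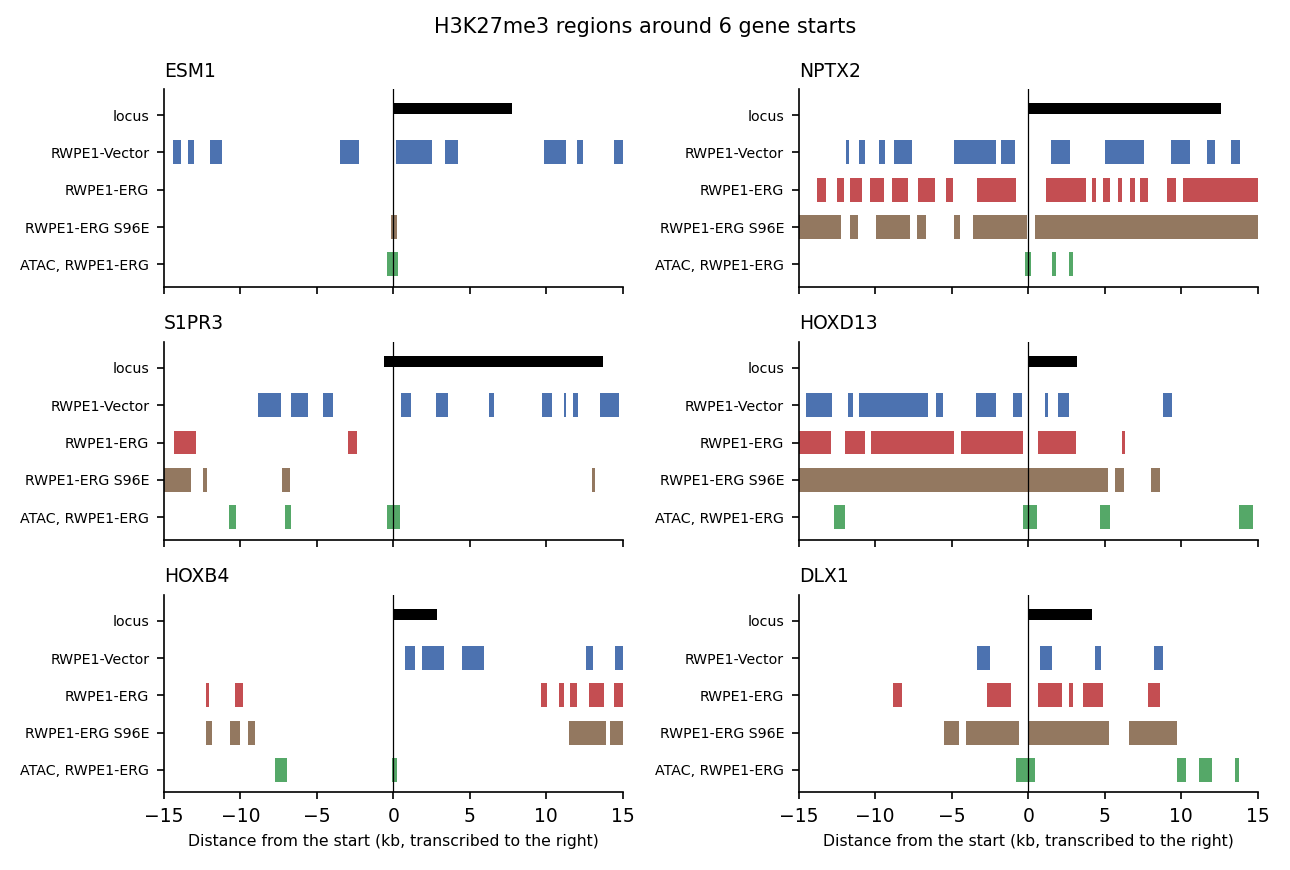
H3K27me3 regions within 15 kb of the start of 6 genes in RWPE1-Vector (blue), RWPE1-ERG (red) and RWPE1-ERG S96E (brown), with the locus (black) and the ATAC-seq peaks of RWPE1-ERG (green); the horizontal axis is the distance from the start in kb, with transcription to the right. At ESM1, S1PR3 and HOXB4 (left) regions lie on the gene in RWPE1-Vector and none do in RWPE1-ERG, and at NPTX2, HOXD13 and DLX1 (right) regions cover more of the gene in RWPE1-ERG than in RWPE1-Vector.

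Transcript levels were then set against coverage for all expressed genes. On a scale of log2((FPKM + 1)/(FPKM + 1)), 2.92% of the 11893 expressed genes were at least 2-fold higher in RWPE1-ERG and 0.891% at least 2-fold lower. Of the 68 expressed genes that lost coverage, 9 were higher (13.2%) and 1 was lower. However, 5 of the 9 were under an FPKM of 1 in RWPE1-Vector and counted as expressed only through RWPE1-ERG, so they had to be higher there. Counting only genes at an FPKM of at least 1 in RWPE1-Vector, an alternative added after seeing the data, 4 of 59 genes that lost were higher (6.78%), against 2.26% of all genes so counted. The numbers also depended on the matching of the lists. With all regions 31 of 397 expressed genes that lost were higher, and with equal covered bases 10 of 85. At an enrichment of at least 2-fold 2 of 21 were, and with the 100000 regions of lowest p-value 1 of 14. Of the 78 expressed genes that gained, 1 was higher and 4 were lower (5.13%), of which 2 were under an FPKM of 1 in RWPE1-ERG. The median log2 ratio was 0.18 for genes that lost, -0.10 for genes that gained and -0.02 for all expressed genes, and 66.2%, 44.9% and 47.5% of them were above 0.

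Covered genes that did not lose the mark also held many with more transcript in RWPE1-ERG. Of the 241 expressed genes with at least 10% covered in RWPE1-Vector, 9.54% were at least 2-fold higher, and for the 173 of them that did not lose coverage the share was 8.09%, against 13.2% for those that did. Restricted to genes at an FPKM of 1 to 10 in the higher line, 13.2% of 53 genes that lost were higher and 5.97% of 67 genes that gained were lower. Of all 5378 such genes, 1.84% and 1.12% were. The shares in this paragraph still count genes that passed the FPKM filter through a single line, as 5 of the 9 above did. They therefore do not remove the effect of that filter. Read from the transcripts, 9 of the 347 genes that were higher in RWPE1-ERG had lost coverage and 1 had gained, and of the 106 that were lower, 1 had lost and 4 had gained. Most genes whose transcript differed at least 2-fold thus had neither a gain nor a loss.

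The 9 genes that lost coverage and were higher in RWPE1-ERG had different roles. Besides ESM1 they were SAA2, an acute phase protein, SLCO2A1, a prostaglandin transporter, S1PR3, a receptor for sphingosine 1-phosphate, HCLS1, COL5A1, a chain of fibrillar collagen, CDK18, a cyclin-dependent kinase, FAM189A2 and NRGN. S1PR3 at chr9:91605778-91620069, a locus it shares with another gene, was 21.9% covered in RWPE1-Vector and not covered in RWPE1-ERG, and its FPKM was 1.14 and 4.53. CDK18 went from 13.1% to 0 at an FPKM of 6.35 and 15.4, and SLCO2A1 from 15.2% to 1.64% at 0.389 and 3.08.

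COL5A1, whose locus is shared with 8 other genes of the table, went from 23.5% to 9.89% at an FPKM of 1.79 and 5.98, and NRGN from 19.8% to 4.89% at 3.11 and 7.84. HCLS1 went from 18.2% to 3.83% at 0.466 and 2.76, and FAM189A2 from 18.3% to 3.08% at 0.104 and 1.42. SAA2 has a near-identical neighbour and shares its locus with 2 other genes, so its coverage of 16.6% and 1.36% and its FPKM of 0.368 and 4.64 are uncertain. GGT7 was the only gene that lost coverage with a transcript at least 2-fold lower, at an FPKM of 4.12 and 1.56.

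The 4 genes that gained coverage and were lower in RWPE1-ERG included NPTX2, ADD2 and the microRNA gene MIR6720. NPTX2, a neuronal pentraxin, went from 44.8% to 59.6% at an FPKM of 8.89 and 2.94, and ADD2, a subunit of the membrane skeleton protein adducin, from 10.5% to 29.6% at 4.801 and 1.76. NPTX2 was also lower with ERG in the presence of mAKT, at 3.08 in RWPE1-mAKT and 1.56 in RWPE1-ERG+mAKT, and its widest region measured 7529 bp in RWPE1-ERG and 2575 bp in RWPE1-Vector. MIR6720 was at an FPKM of 3.03 in RWPE1-Vector and listed at 0 in RWPE1-ERG and shares its locus with another gene, so its value is uncertain. VSTM1 was the exception among genes that gained, with an FPKM of 0.0241 in RWPE1-Vector and 1.58 in RWPE1-ERG at a coverage of 1.26% and 13.3%.

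**Figure D5:**
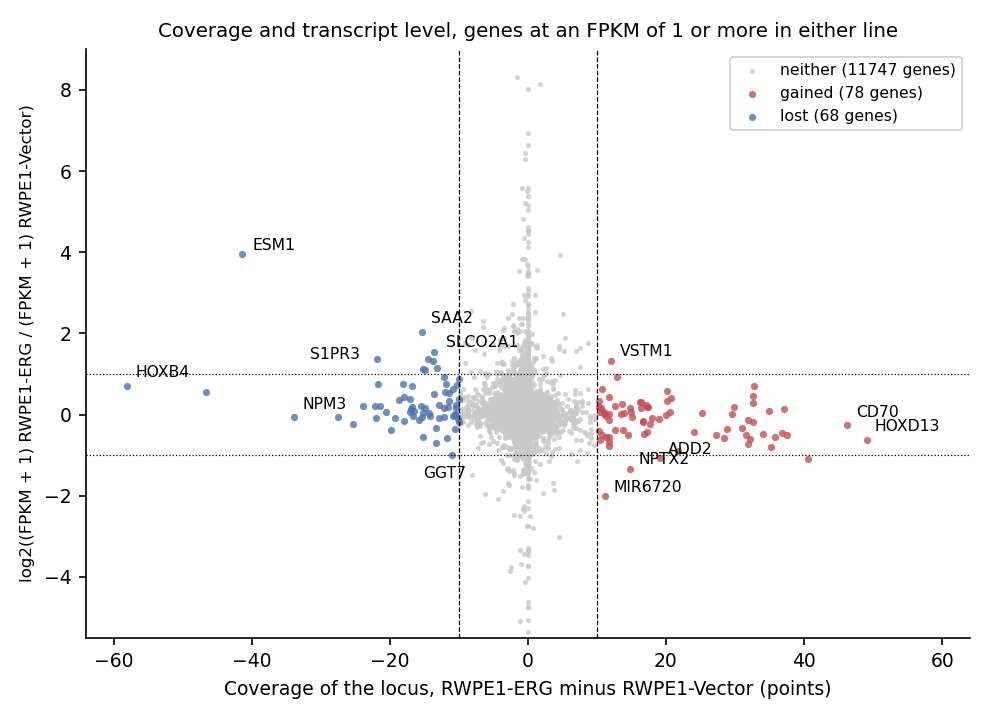
Difference in coverage of the locus between RWPE1-ERG and RWPE1-Vector in percentage points (horizontal axis) and log2 ratio of FPKM + 1 (vertical axis) for 11893 expressed genes; dashed lines mark 10 points and dotted lines a 2-fold difference. Of the 68 genes that lost coverage (blue) 9 lie above the upper dotted line, of the 78 that gained (red) 1 does, and most genes with a 2-fold difference lie near 0 points.

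The same genes were read in a contrast that shares no RNA sample with the one above, ERG in the presence of mAKT. Of 11858 genes expressed in those lines, 1.71% were at least 2-fold higher in RWPE1-ERG+mAKT than in RWPE1-mAKT and 0.742% lower. Of 72 expressed genes that lost coverage, 4 were higher (5.56%) and none lower. Of 75 that gained, 4 were higher and 4 lower (5.33% each), so the shares that were higher were close. The median log2 ratio was 0.09 for genes that lost and -0.05 for genes that gained, against -0.07 for all. ESM1, SAA2, HCLS1 and NRGN, at log2 ratios of 1.75, 1.66, 1.66 and 1.03, were higher with ERG in both backgrounds. However, ESM1, at an FPKM of 0.0399 in RWPE1-mAKT, counted as expressed only through RWPE1-ERG+mAKT, so it had to be higher there. The values of SAA2 are uncertain, as given above. S1PR3 and CDK18, by contrast, were at 0.35 and 0.30 with mAKT.

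Coverage in RWPE1-ERG S96E, a library that the choice of genes did not use, was higher than in both lines over the genes that gained. Their median was 56.6% in RWPE1-ERG S96E, beside 32.0% in RWPE1-ERG and 11.8% in RWPE1-Vector. Over the genes that lost it was 19.6%, beside 4.71% and 21.9%, and over all genes it was 0. At least 10% of the locus was covered in RWPE1-ERG S96E for 94.9% of the genes that gained and 63.3% of the genes that lost, beside 22.5% of all genes. By definition, genes that gained had at least 10% covered in RWPE1-ERG and genes that lost at least 10% in RWPE1-Vector. Of all 23638 genes, 12923 and 8422 had no region in these lines. The share of all genes is thus not that of genes of like coverage, which were not compared. The RWPE1-ERG S96E library was the deepest, at 26454542 ChIP reads of 74 bp against 84 bp in the others, its list of equal number covered 214.5 Mb with 3413 regions at a q-value of 0.01, and the part of these differences in the result was not tested.

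The genes differed in this library. HOXB8, HOXD13, SIX3, DLX5 and TLX3, which gained, were covered over their whole locus in RWPE1-ERG S96E. Of the genes that lost, HOXB4, NPM3, MSX2 and CDK18 had no region there, and ESM1 and S1PR3 were at 3.12% and 1.46%. NRGN and KLK4, on the other hand, were at 56.1% and 60.5% in RWPE1-ERG S96E, above their level in RWPE1-Vector.

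The promoters of 17275 protein-coding genes, as windows that reach 1 kb from the start in each direction, also held more gains than losses with equal numbers of regions, with 2110 that gained at least 10 points (12.2%) and 783 that lost (4.53%). The excess was largest at silent promoters rich in CpG. Of 1163 such promoters of genes under an FPKM of 0.1 in both lines, 53.6% gained and 5.16% lost, and the mean share covered was 21.1% in RWPE1-Vector, 37.9% in RWPE1-ERG and 76.8% in RWPE1-ERG S96E. Of 3858 silent promoters with less CpG, 24.0% gained and 11.98% lost, and the mean was 9.51%, 14.1% and 28.5%. At 6947 CpG-rich promoters of genes at an FPKM of at least 1 in both lines the mark was nearly absent, at 0.475% and 0.582%. With all regions of both lists, 1754 promoters gained and 1677 lost coverage. Of 204 expressed genes whose promoter gained, 8 were at least 2-fold higher in RWPE1-ERG and 8 lower (3.92% each). Of 140 whose promoter lost, 11 were higher (7.86%) and 2 lower (1.43%). Among all 10346 expressed genes of this set, 1.59% were higher and 0.551% lower. Gains at promoters thus went with higher and with lower transcripts in equal number, although lower transcripts were the rarer of the 2 among all expressed genes. These shares also count genes that passed the FPKM filter through a single line.

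Open chromatin and ERG binding were read from other libraries of the series. An ATAC-seq peak of RWPE1-ERG cells overlapped 33.2% of the promoters that gained and 31.8% of those that lost, against 68.7% of all promoters. Few promoters held an ERG peak of RWPE1-ERG+mAKT cells, the only RWPE1 line whose ERG peaks were used here. There were 3 among those that gained and 4 among those that lost, of 228 in all, which is 0.142% and 0.511% against 1.32% of all promoters.

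The count of wide domains depended on the matching of the lists. With regions joined across gaps of up to 5 kb, 2805 domains of at least 20 kb were found in RWPE1-Vector and 4000 in RWPE1-ERG, and 5441 in RWPE1-ERG S96E. With all regions the order was the other way round, at 9877 in RWPE1-Vector and 4000 in RWPE1-ERG, as it was with a gap of up to 10000 bp, at 8948 and 8445. The widest domain of RWPE1-ERG measured 338143 bp on chromosome 20 around MIR548AG2, of which 67.3% was covered in RWPE1-ERG and 36.8% in RWPE1-Vector. The second widest of both lines lay around PAX2 on chromosome 10, a regulator of kidney development, at 320390 bp in RWPE1-ERG and 260287 bp in RWPE1-Vector. The next widest of both lay around C9orf62 on chromosome 9. The widest domain of RWPE1-Vector, 331279 bp on chromosome 16, lay in HYDIN, which has a near-identical copy, and was 68.1% covered in RWPE1-Vector and 24.7% in RWPE1-ERG.

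Among genes under an FPKM of 0.1 in both lines with loci of at least 20000 bp, the largest gains were those of ZIC4, a zinc finger factor of the developing cerebellum, from 51.9% to 100%, NR2E1, a nuclear receptor of neural stem cells, from 16.1% to 60.1%, CR2, a complement receptor of B cells, from 24.7% to 65.5%, and CNPY1, from 9.21% to 46.6%. A single region of 35720 bp, the widest of the RWPE1-ERG list, covered ZIC4. The largest losses were smaller. They were those of CLCA1, from 26.1% to 2.97%, SLC26A9, an epithelial anion transporter, from 26.6% to 4.99%, DAPL1, from 27.6% to 6.04%, and FFAR4, a receptor for fatty acids, from 30.3% to 13.4%. With the 100000 regions of lowest p-value the losses of CLCA1, SLC26A9 and DAPL1 were under 10 points, as were the gains of KLK2, CLEC14A and MMP7 given above. DAPL1 had no loss over the span of the gene in GENCODE, where RWPE1-ERG was higher by 1.36 points.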

How the data were processed

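H3K27me3 ChIP-seq was compared between 1 RWPE1-Vector and 1 RWPE1-ERG library, with 1 RWPE1-ERG S96E library beside them. Per the methods, each library held the DNA of several ChIP experiments, and the authors aligned reads by Bowtie2 (build hg19) and discarded duplicates and blacklisted regions. The deposited lists came from MACS2 2.2.7.1 in broad mode against the input of each line, run with 0.001 as the p-value limit and 0.1 as the limit for joining broad regions, and give each region a mean -log10 p and a fold enrichment (a ratio over local background). The FPKM values deposited by the authors came from Cuffdiff, 1 per gene and line, pooled over 3 libraries. The fold changes, p-values and q-values of the Cuffdiff table hold the authors' own comparisons and were not used. No column of single samples was left out (0 columns).

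The 228233 regions of lowest p-value were taken from each list, and the percent of each locus of the Cuffdiff table covered by them was computed. Genes with loci under 2000 bp, genes outside chromosomes 1 to 22 and X, and 2 symbols with more than 1 locus were left out. A gene is said to have gained or lost coverage at a difference of 10 points or more. Genes that share a locus (8614) have the same coverage and are not independent. Transcript ratios were computed with a pseudocount of 1 FPKM, which understates the change of low genes. Promoters were windows of 1 kb to either side of the GENCODE start on GRCh37, which has the coordinates of hg19, and were called CpG-rich at an observed over expected CG ratio of at least 0.6 and a GC content of at least 50%. Peak lists of ATAC-seq in RWPE1-ERG and of ERG in RWPE1-ERG+mAKT were taken as deposited.

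With 1 ChIP library per line and pooled FPKM, no test, SD or interval between lines was possible, and all results are descriptions. Sequencing depth limits which regions were called. The members and lists were chosen with earlier results of these data known. Genes were named by rule: the 8 largest gains and losses among expressed genes, genes with a gain or loss and a 2-fold difference at an FPKM of at least 5, up to 4 members per list with a difference of at least 10 points, the 4 largest gains and losses among silent genes with loci of at least 20000 bp, and ERG with the PRC2 and demethylase genes. Other genes, including those of lower FPKM with a 2-fold difference and the neighbours named in a cluster or list, were named after their values were seen. Some genes that the rule selects are not reported here. The coverage step was tested on simulated data. Python 3.11.15 with numpy 2.4.6, pandas 2.3.3 and matplotlib 3.10.9 was used. Alternatives varied the matching of lists, the limits, the locus, the pseudocount and the expression filter.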

Additional observations from a re-analysis of the deposited data

How the results depend on the processing

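No paired analysis was possible because there was 1 ChIP library per line and the FPKM values were pooled by the authors, and leaving out single replicates was not possible for the same reason. Of 140 settings of the main results 83 left the value close to that reported and 57 moved it, and of 722 settings of single named genes 586, 125 moved it and 11 turned its direction (the causes were not tested). A count was called close within 1.5-fold, and a share inside the 95% Wilson interval of the main share. A named gene was called close if its direction and its call were kept. Counting 1 gene per locus and the GENCODE span were chosen after seeing the data, and gave 1101 and 1110 genes that gained and 397 and 349 that lost. Genes that gained numbered 1278, and 595 with all regions, 2350 and 508 at limits of 5 and 20 points, 686 with loci of at least 10000 bp and 13 with regions at a q-value of at most 0.01. Genes that lost numbered 430, and 2057 with all regions, 175 with 100000 regions, 260 at an enrichment of at least 2-fold, 1182 and 116 at 5 and 20 points, 177 with loci of at least 10000 bp, 230 with 5000 bp added to either side and 0 at the q-value limit. The percent of expressed genes that gained with lower FPKM (5.13) became 0 at the q-value limit, 16.7 at a pseudocount of 0.1, 0.313 without an FPKM filter and 15.4 at a 1.5-fold limit, and the percent that lost with higher FPKM (13.2) became 2.09 without the filter, 26.5 at 1.5-fold and 6.78 with a filter on RWPE1-Vector alone. With a filter on both lines 4 of 56 genes that lost were higher, against 2.32% of all genes so counted. Of 52 genes that gained, 2 were then lower, against 0.506% of all. Both of these filters, on RWPE1-Vector alone and on both lines, were chosen after seeing the data. Over all genes the percent higher and lower was 4.19 and 1.72 at a pseudocount of 0.1, 1.47 and 0.448 without the filter and 6.46 and 2.84 at 1.5-fold. The percent of silent genes at least 10% covered in RWPE1-Vector (24.6) was 45.6 with all regions, 27.4 with equal bases, 10.4 with 100000 regions, 12.9 at 2-fold, 23.5 without a minimum length, 22.7 from 10000 bp and 0 at the q-value limit, and in RWPE1-ERG (29.9) it was 19.1 with 100000 regions, 18.02 at 2-fold, 28.3 without a minimum length, 27.8 from 10000 bp, 30.9 with 5000 bp added and 0.0907 at the q-value limit. Developmental factors that gained (50) numbered 33 at 20 points, 16 from 10000 bp and 3 at the q-value limit. Promoters that lost (783) numbered 1677 with all regions, 390 with 100000 and 484 at 2-fold. The percent covered in RWPE1-ERG S96E of genes that gained (94.9) was 88.6 with equal bases and 96.1 at 2-fold, and of genes that lost (63.3) it was 46.5 with equal bases and 56.0 with 100000 regions. The percent of RWPE1-ERG bases shared with RWPE1-Vector (23.1) was 32.1 with all regions, 24.8 with equal bases, 18.7 with 100000 and 22.02 at 2-fold, and 23.1 by fold. Domains in RWPE1-Vector (2805) numbered 9877 with all regions, 447 with 100000, 655 at 2-fold, 280 with a gap of 2000 bp and 8948 with 10000 bp, and in RWPE1-ERG (4000) 1221, 1012, 707 and 8445 under the last 4. The difference of CLEC14A turned to -4.05 points with all regions, equal bases or fold and to -0.614 with 5000 bp added, that of EGFL7 to -11.4 and NRXN2 to -3.12 with all regions, that of KLK4 to 2.35 with 100000 regions and at 2-fold, those of KRT6B and MMP9 to 3.87 and 36.97 with 100000 regions, and that of DAPL1 to 1.36 over the GENCODE span.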

Other observations

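Families of genes also held gains. Some of their members are in the lists above and were counted there, such as TBX2, TBX15, TBX20 and CLEC14A. Of 167 families of at least 15 measured genes that share the start of a symbol, a grouping made after the values were seen, PCDHB, the clustered protocadherins of neuronal cell recognition on chromosome 5, had 16 of 19 genes that gained and 1 that lost. The median coverage of the 19 genes was 0 in RWPE1-Vector, 46.1% in RWPE1-ERG and 78.5% in RWPE1-ERG S96E. PCDHB16 and PCDHB13 went from 0 to 80.4% and 79.1%, and PCDHB11 went from 10.1% to 0. These genes resemble each other closely in sequence, and their coverage is uncertain for that reason. Of 19 serotonin receptor genes (HTR) 6 gained and none lost, of 31 C-type lectin genes (CLEC) 8 gained and 3 lost, and of 15 T-box genes (TBX) 5 gained and none lost. In other families losses outnumbered gains, with 3 losses and no gain among 19 chemokine genes (CCL) and among 19 PRAMEF genes, which are near-identical copies, and 3 losses and 1 gain among 16 aquaporin genes (AQP). Of all genes, 5.41% gained and 1.82% lost.

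The 6 largest gains and the 6 largest losses of all were on loci of 2049 to 4556 bp, and HOXB4 was the only one of these genes at an FPKM of at least 1. RXFP3, a receptor for a relaxin peptide, went from 14.4% to 100%, and TRH, the gene of thyrotropin-releasing hormone, from 0 to 77.4%. KCNA5, a potassium channel gene, went from 55.7% to 0 and was covered over its whole locus in RWPE1-ERG S96E.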
